A study of Mus musculus with 4 samples.

Results

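Leukocyte integrins, the selectin ligand gene Selplg and the immunoglobulin-like adhesion ligands were examined as a set of 9 genes chosen by name, namely Itgal, Itgam, Itga4, Itgb2, Itgb7, Selplg, Icam1, Icam2 and Vcam1. All 9 were found among the 56748 genes of the count table, and all 9 passed the filter on low counts that left 15320 genes for testing. The RNA came from lungs of female BALB/cJ mice, injected at 7 weeks of age with 4T1-FLuc, a luciferase-carrying mouse line of triple-negative breast cancer (TNBC), through the tail vein. The control samples (n = 2) came from mice given saline, named PBS in the treatment label. The treated samples (n = 2) came from mice given the CD276-DM1 antibody-drug conjugate (ADC), whose payload mertansine blocks microtubules, together with cmLumiOpto, a gene therapy that depolarizes mitochondria under the cfos promoter once the substrate ViviRen is supplied. The treatment label gives the ADC at 16 mg/kg and adds the abbreviation Olap, whereas the study's methods give 8 mg/kg with 2 mg/kg of ViviRen. Harvest followed 3 weeks of treatment by the series description, whereas the study's methods set it by a loss of body weight. Whether all 4 samples were harvested at the same time is therefore not known. The 4T1-FLuc cells of all 4 samples carry luciferase, and all 4 hosts were immunocompetent.

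Leukocytes leave the blood in steps. Selectins on endothelium and platelets catch mucin-like ligands such as PSGL-1, the product of Selplg, so that the cell rolls. Chemokine signals then switch on leukocyte integrins, which are pairs of an alpha and a beta chain, and the integrins hold the cell to immunoglobulin-like ligands on the vessel wall. LFA-1 (Itgal with Itgb2) and Mac-1 (Itgam with Itgb2) bind ICAM proteins, whereas integrins with the Itga4 chain bind VCAM-1 and, when paired with Itgb7, the mucosal addressin MAdCAM-1. In the lung, neutrophils and monocytes carry much of the Itgam and Itgb2 message, and alveolar capillaries carry ICAM-1 and ICAM-2 constitutively.

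The promoter windows of 2 members with known regulatory logic are shown, since Icam1 is a ligand whose groups did not overlap and Itgam an integrin chain whose groups did. They are the 250 bases before the transcription start in RefSeq, GRCm38.p6, and windows were given for 4 of the 9 members (Itgam, Itga4, Itgb7 and Icam1). The first is Icam1, an NF-kappaB target, at chr9:21015690-21015939 on the plus strand, and the second is Itgam, a myeloid gene, at chr7:128062390-128062639 on the plus strand. Capitals mark matches to GGANNTTCC, the letters used for a kappaB site, and to GAGGAA, the letters used for the core of a PU.1 site, searched on both strands.
Icam1: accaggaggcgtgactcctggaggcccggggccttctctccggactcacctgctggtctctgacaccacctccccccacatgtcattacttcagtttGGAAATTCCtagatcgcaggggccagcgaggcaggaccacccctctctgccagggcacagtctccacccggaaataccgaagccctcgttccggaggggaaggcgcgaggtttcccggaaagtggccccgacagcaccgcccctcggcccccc
Itgam: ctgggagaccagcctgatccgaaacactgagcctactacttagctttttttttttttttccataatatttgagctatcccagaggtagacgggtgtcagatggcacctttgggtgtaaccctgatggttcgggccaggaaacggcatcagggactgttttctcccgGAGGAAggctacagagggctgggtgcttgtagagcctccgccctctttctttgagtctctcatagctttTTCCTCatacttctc
The Icam1 match, GGAAATTCC, begins 153 bases before the start, and the 2 Itgam matches begin 84 and 15 bases before it. Of 32851 RefSeq windows of this length, 3.59% held the kappaB letters and 23.3% held the PU.1 letters. Neither motif was found in the Itga4 and Itgb7 windows.

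Library totals ran from 15263375 to 19675436 counts. A floor of 3 counts, which covers counting error only, equals 0.146 to 0.202 CPM (counts scaled to a common library size, with TMM factors that even out library makeup). Marker genes of several cell types differed between libraries of the same group. The summed CPM of 9 neutrophil markers was 8592 in ADC/cmLumiOpto sample 2, against 1302 in ADC/cmLumiOpto sample 1 and 1410 and 735 in saline samples 1 and 2. The summed CPM of 8 lung epithelial markers was 2647 and 409 in the saline samples against 11497 and 7653 in the ADC/cmLumiOpto samples, although the labels name tumor cells. The 7 carcinoma markers summed to between 2847 and 3342 CPM in all 4 samples. Of these 7, 3 had a log2 fold change (ADC/cmLumiOpto minus saline) above 0 and 4 below, where 52.0% of all tested genes were above. This list holds keratin genes, Epcam, Cdh1 and Cd276, and its sum was not tested as a measure of tumor load. The 7 mesenchymal markers summed to 3751 and 2545 CPM in the saline samples against 1137 and 1013 CPM in the ADC/cmLumiOpto samples. In bulk samples such as these, fewer cells of a type and less RNA per cell cannot be told apart.

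**Figure D1:**
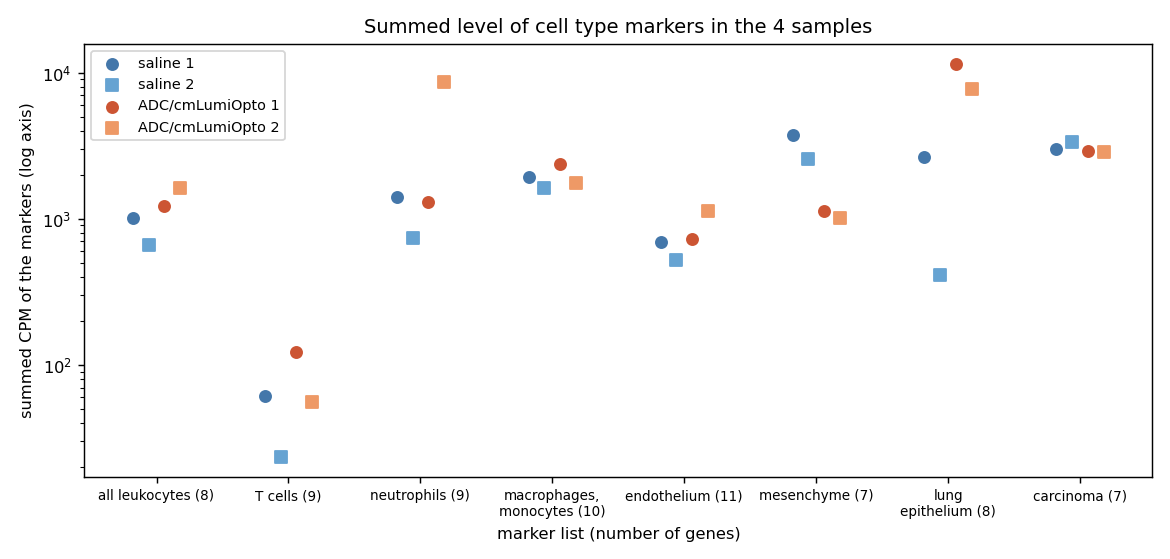
Summed CPM (log axis) of marker lists for 8 cell types, with 1 point for each of the 4 samples and the number of genes in brackets. ADC/cmLumiOpto sample 2 stands above the other 3 samples for neutrophil markers, and saline sample 2 stands below the other 3 for leukocyte, T cell, endothelial and lung epithelial markers.

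Levels were compared between genes per length, as FPKM (CPM divided by the listed gene length in kilobases). Itgb2, the shared beta chain of the CD18 integrins, was the highest member in each sample, at 62.3 and 77.5 FPKM in the saline samples against 66.5 and 102 FPKM in the ADC/cmLumiOpto samples. Vcam1 was next in 3 of the samples, at 41.9, 49.6 and 36.0 FPKM in saline samples 1 and 2 and ADC/cmLumiOpto sample 1, and it came after Selplg in ADC/cmLumiOpto sample 2, at 31.5 against 35.3 FPKM. Itga4 was the lowest in every sample, at 1.66 ± 0.515 FPKM (SD, n = 2) after saline and 1.53 ± 0.0366 FPKM (SD, n = 2) after treatment. Between these ends the saline means ran from Itgam (16.5 ± 6.41 FPKM) through Icam1 (11.3 ± 5.47), Selplg (9.89 ± 4.02), Itgal (7.04 ± 3.72) and Itgb7 (5.49 ± 1.496) to Icam2 (5.17 ± 2.30, SD, n = 2 for each), and no neighbors in that order differed by more than their spread. After treatment Selplg (25.98 ± 13.2 FPKM), Icam1 (24.7 ± 0.668), Itgam (18.3 ± 11.7) and Icam2 (17.1 ± 0.971, SD, n = 2 for each) had higher means than Itgal (10.9 ± 1.62) and Itgb7 (10.02 ± 3.42).

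**Figure D2:**
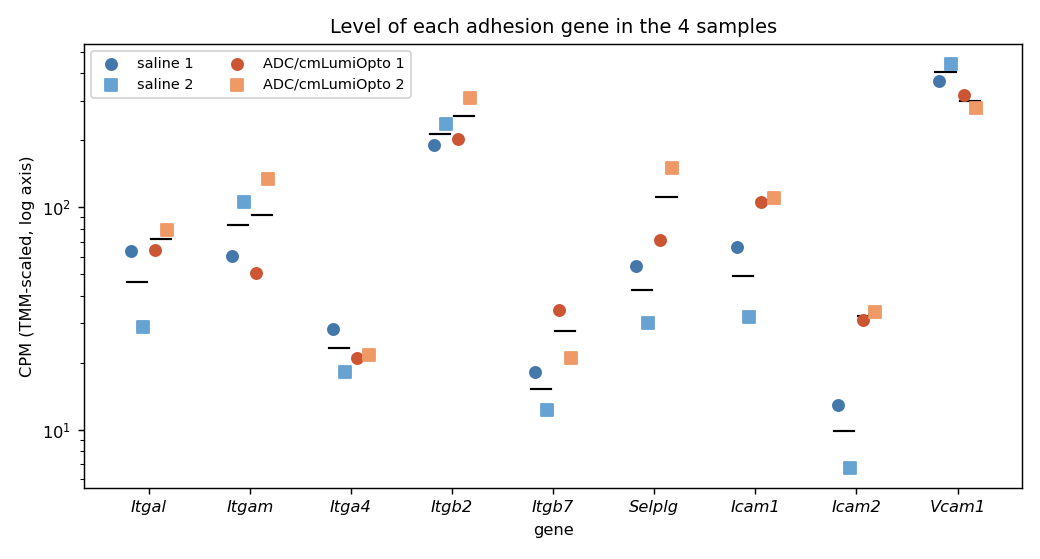
CPM (log axis) of the 9 adhesion genes in the 4 samples, where each point is 1 sample and black lines are group means. Both ADC/cmLumiOpto points lie above both saline points for Itgal, Itgb7, Selplg, Icam1 and Icam2, below both for Vcam1, and among them for Itgam, Itga4 and Itgb2.

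The comparison of ADC/cmLumiOpto with saline asked which of these genes differed in metastasis-bearing lung after the combination. Icam2, Selplg and Icam1 had the largest log2 fold changes, between 1.13 and 1.72, and Vcam1 had a negative one of -0.44. The integrin chains Itgam, Itga4 and Itgb2 overlapped between groups. With edgeR's quasi-likelihood test and Benjamini-Hochberg adjustment over all tested genes, 0 of the 9 members had an adjusted p under 0.05, as did 0% of all tested genes. At an unadjusted p under 0.05, 4 members were higher (Icam2, Icam1, Selplg and Itgb7), where the share of all tested genes was 11%, and 1 was lower (Vcam1), where that share was 12.2%. Upper-quartile scaling moved the split over all genes from 1690 higher and 1863 lower to 2146 higher and 1398 lower, and that of the members to 4 and 0. Without saline sample 2, which had the lowest leukocyte and lung epithelial markers, 2 members were higher and 0 lower at that threshold, beside 805 and 756 of the 15320 genes. Values above 0 were found for 7 members, and for 52.0% of all tested genes. The edgeR exact test and DESeq2 each gave an adjusted p under 0.05 for the same 3 members, Icam2, Icam1 and Selplg, all higher, against 3.96% and 3.78% of all tested genes. They called 0 members lower, against 3.68% and 5.05% of all tested genes. Both treated samples lay above both saline samples for 5 members (28.1% of all tested genes) and below both for 1 member (28.8% of all tested genes). The median log2 fold change was 0.63 over the 9 members and 0.028 over all tested genes.

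**Figure D3:**
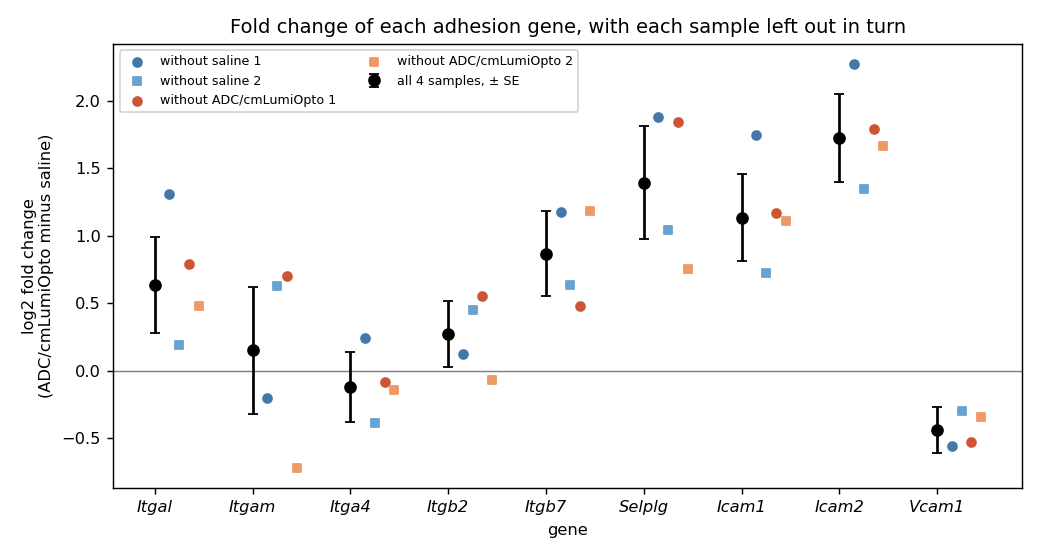
Log2 fold change (ADC/cmLumiOpto minus saline) of the 9 adhesion genes from edgeR, with black points and bars for all 4 samples ± standard error and colored points for each sample left out in turn. Selplg, Icam1, Icam2, Itgal and Itgb7 stay above 0 and Vcam1 stays below 0 whichever sample is left out, whereas Itgam, Itga4 and Itgb2 cross 0.

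Among the ligands of leukocyte integrins, Icam2 (ENSMUSG00000001029, chromosome 11, 106268482 to 106278901, minus strand, positions as listed in the table, whose processing notes name mm39) differed most. It encodes a ligand of LFA-1 that endothelial cells and platelets carry without stimulation. Its CPM was 12.9 and 6.74 in saline samples 1 and 2 and 31.2 and 33.8 in ADC/cmLumiOpto samples 1 and 2, so each treated sample had more than 2 times the level of either saline sample. Its log2 fold change was 1.72 (SE, the standard error, 0.33, quasi-likelihood adjusted p = 0.116), and the adjusted p was 5.12e-04 in the edgeR exact test and 1.55e-04 in DESeq2. Without saline sample 1 it was 2.27, at a quasi-likelihood adjusted p of 0.0213, and without saline sample 2 it was 1.34, at one of 0.324. Leaving out ADC/cmLumiOpto sample 1 or 2 gave adjusted p of 0.182 and 0.112. The 11 endothelial markers summed to 695 and 522 CPM in the saline samples against 732 and 1130 CPM in the ADC/cmLumiOpto samples. As a share of that sum, Icam2 was at 1.86% and 1.29% in the saline samples against 4.27% and 2.996% in the ADC/cmLumiOpto samples, which did not overlap.

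Icam1 (ENSMUSG00000037405, chromosome 9, 20927281 to 20940113, plus strand), whose promoter is shown above, encodes the cytokine-inducible ligand of LFA-1 and Mac-1 on endothelium, epithelium and leukocytes. It was at 65.95 and 32.2 CPM in the saline samples against 105.7 and 110 CPM in the ADC/cmLumiOpto samples. The treated samples were close to each other, while the saline samples differed from each other by 2.05 times. The log2 fold change was 1.13 (SE 0.33, quasi-likelihood adjusted p = 0.134), with an adjusted p of 0.0322 in the edgeR exact test and 0.0121 in DESeq2. Saline sample 1 and saline sample 2 decided its size, with values of 1.74 (quasi-likelihood adjusted p = 0.0281) and 0.72 (adjusted p = 0.460) when the one or the other was left out. Alveolar epithelium also carries Icam1, and lung epithelial markers were higher in the treated samples as given above. Their part in the Icam1 and Icam2 values was not tested. As a share of the endothelial marker sum, Icam1 was at 9.48% and 6.18% after saline and at 14.4% and 9.72% after treatment, nearly touching between saline sample 1 and ADC/cmLumiOpto sample 2. Within each sample the FPKM of Icam2 per FPKM of Icam1 was 0.449 and 0.479 in the saline samples against 0.677 and 0.706 in the ADC/cmLumiOpto samples.

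Vcam1 (ENSMUSG00000027962, chromosome 3, 115903598 to 115923337, minus strand) is the endothelial and stromal ligand of Itga4 integrins. Its CPM was 372 and 440 in the saline samples against 319 and 279 in the ADC/cmLumiOpto samples. The treated pair lay under the saline pair, by a log2 fold change of -0.44 (SE 0.17, quasi-likelihood adjusted p = 0.199). Vcam1 is a long gene (8870 bases as listed), and longer genes had lower fold changes across the table. Correcting for that trend gave -0.21 for Vcam1, with an unadjusted quasi-likelihood p of 0.282 in edgeR against 0.0412 before. The FPKM of Vcam1 per FPKM of Icam1, not corrected for that trend, was 2.77 and 6.72 in the saline samples against 1.49 and 1.25 in the ADC/cmLumiOpto samples. The summed level of the mesenchymal markers was lower in the treated samples as given above. Of these 7 markers, 6 were lower and 1 was higher at an unadjusted p under 0.05 in edgeR's quasi-likelihood test. Of all tested genes, 12.2% were lower and 11% higher at that threshold. The part of the mesenchymal markers in the Vcam1 value was not tested.

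Selplg (ENSMUSG00000048163, chromosome 5, 113956597 to 113970705, minus strand) encodes PSGL-1, the main ligand of P-selectin on leukocytes. Its CPM was 54.4 and 30.1 in the saline samples against 71.2 and 151 in the ADC/cmLumiOpto samples. ADC/cmLumiOpto sample 2, the library with the highest neutrophil markers, was 2.12 times as high as ADC/cmLumiOpto sample 1. The log2 fold change was 1.39 (SE 0.42, quasi-likelihood adjusted p = 0.140), with an adjusted p of 0.0312 in the edgeR exact test and 0.00895 in DESeq2. It was 0.75 without ADC/cmLumiOpto sample 2 (quasi-likelihood adjusted p = 0.261) and 1.88 without saline sample 1 (quasi-likelihood adjusted p = 0.0843). Relative to the summed CPM of 8 leukocyte markers, which was 1015 and 657 in the saline samples against 1223 and 1622 in the ADC/cmLumiOpto samples, Selplg was at 5.36% and 4.59% in the saline samples against 5.83% and 9.29% in the ADC/cmLumiOpto samples. The leukocyte markers include Ptprc, the gene of CD45, at 69.9 and 47.9 CPM after saline and 105 and 174 CPM after treatment.

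The beta chain Itgb2 (ENSMUSG00000000290, chromosome 10, 77366086 to 77401542, plus strand) is required for the surface display of LFA-1, Mac-1 and the Itgax integrin. It was at 190 and 236 CPM in the saline samples against 203 and 311 CPM in the ADC/cmLumiOpto samples, so ADC/cmLumiOpto sample 1 lay between the saline samples. The log2 fold change was 0.27 (SE 0.24, quasi-likelihood adjusted p = 0.535), and -0.072 without ADC/cmLumiOpto sample 2. Per leukocyte marker CPM, Itgb2 was at 18.7% and 36.0% in the saline samples against 16.6% and 19.2% in the ADC/cmLumiOpto samples, with saline sample 2 apart from the other 3.

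Itgal (ENSMUSG00000030830, chromosome 7, 126895432 to 126934310, plus strand), the alpha chain of LFA-1 on lymphocytes and most other leukocytes, was at 63.5 and 28.9 CPM in the saline samples against 64.3 and 79.3 CPM in the ADC/cmLumiOpto samples. Saline sample 1 and ADC/cmLumiOpto sample 1 were nearly level, and the low saline sample 2 carried the difference. The log2 fold change of 0.63 (SE 0.36, quasi-likelihood adjusted p = 0.321) was 0.19 without saline sample 2 and 1.31 without saline sample 1. Per leukocyte marker CPM, Itgal was at 6.26% and 4.40% after saline and 5.26% and 4.89% after treatment, a range in which the treated samples lay between the saline samples.

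Itgam (ENSMUSG00000030786, chromosome 7, 127661812 to 127717663, plus strand), the alpha chain of Mac-1 on neutrophils, monocytes and macrophages, overlapped between the groups. Its CPM was 60.2 and 106 in the saline samples against 50.4 and 134 in the ADC/cmLumiOpto samples, with the lowest and the highest value in the treated group. The log2 fold change was 0.15 (SE 0.47, quasi-likelihood adjusted p = 0.875), and it went from -0.72 to 0.70 as ADC/cmLumiOpto sample 2 or ADC/cmLumiOpto sample 1 was left out. Of the 9 neutrophil markers, 2 had the same order of samples, Mmp8 and Il1r2, and the other 7 did not. Il1r2, a decoy receptor of interleukin-1, was at 42.2 and 91.5 CPM after saline and 25.4 and 140 CPM after treatment, whereas S100a8 was at 454 and 170 CPM after saline and 422 and 3089 CPM after treatment, another order. Mmp8, Il1r2 and S100a8 were picked after their values were seen. The span of Itgam overlaps that of Gm49368 on the same strand, to which between 1 and 8 reads were assigned per sample, so reads shared by both may be missing from the Itgam counts.

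The other alpha chains that pair with Itgb2 are Itgax, known from dendritic cells and lung macrophages, and Itgad. Itgax was at 38.6 and 11.5 CPM in the saline samples against 72.5 and 44.9 CPM in the ADC/cmLumiOpto samples, which gave a log2 fold change of 1.22 (SE 0.53, quasi-likelihood adjusted p = 0.228). Itgad had 0 counts in 3 samples and 1 count in ADC/cmLumiOpto sample 2, under the floor of 3 counts. The makeup of the alpha chains differed more between the libraries of a group than between the group means. Of the summed FPKM of Itgal, Itgam and Itgax, Itgam took 40.4% and 75.6% in the saline samples against 28.7% and 55.4% in the ADC/cmLumiOpto samples. Itgax took 27.1% and 8.62% after saline and 43.2% and 19.5% after treatment, and Itgal between 15.8% and 32.6% in all samples. The summed FPKM of these alpha chains with Itgad was 47.7% and 36.0% of that of Itgb2 in the saline samples against 52.5% and 47.1% in the ADC/cmLumiOpto samples.

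**Figure D4:**
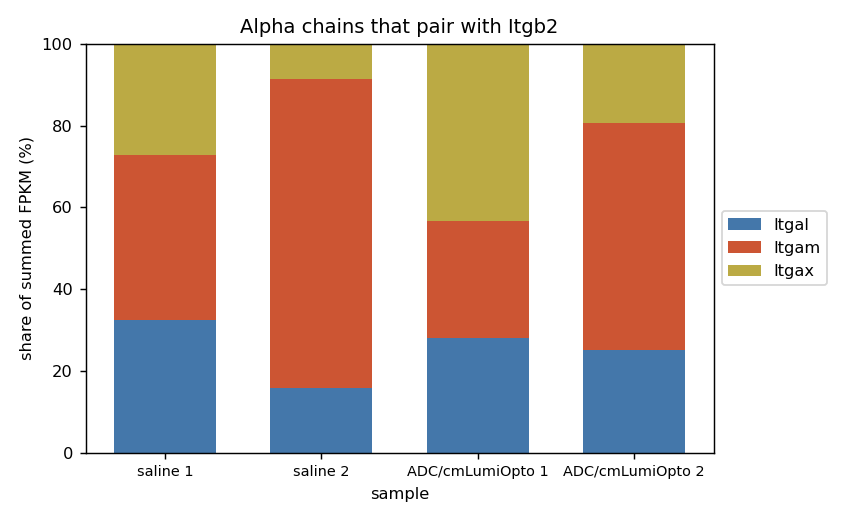
Share (%) of the summed FPKM of Itgal, Itgam and Itgax taken by each chain, with 1 stacked bar per sample. Itgam takes the largest share in both saline samples and in ADC/cmLumiOpto sample 2, and Itgax takes the largest in ADC/cmLumiOpto sample 1.

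Itga4 (ENSMUSG00000027009, chromosome 2, 79085770 to 79163467, plus strand), the alpha chain of VLA-4 and of the gut-homing integrin, was at 28.3 and 18.1 CPM in the saline samples against 21.0 and 21.7 CPM in the ADC/cmLumiOpto samples. The treated samples lay between the saline samples, and the log2 fold change was -0.12 (SE 0.26, quasi-likelihood adjusted p = 0.811). Itga4 has the longest listed model of the members (13978 bases), and correcting for the length trend gave 0.20. Itgb7 (ENSMUSG00000001281, chromosome 15, 102124430 to 102140379, minus strand), a beta chain that pairs with Itga4 or with Itgae, was at 18.1 and 12.3 CPM in the saline samples against 34.5 and 21.1 CPM in the ADC/cmLumiOpto samples. Both treated samples lay above both saline samples, by a log2 fold change of 0.87 (SE 0.32, quasi-likelihood adjusted p = 0.179), which was 0.48 without ADC/cmLumiOpto sample 1 and 1.18 without saline sample 1. Per leukocyte marker CPM, Itgb7 was at 1.79% and 1.87% in the saline samples against 2.82% and 1.30% in the ADC/cmLumiOpto samples. The groups overlapped on that scale. The FPKM of Itga4 per FPKM of Itgb7 was 0.310 and 0.293 in the saline samples against 0.121 and 0.205 in the ADC/cmLumiOpto samples. This ratio was not corrected for the length trend, and Itgb7 is listed at 2770 bases. The corrected log2 fold change of Itgb7 was 0.74, beside the 0.20 of Itga4 given above. Itgae, the other partner of Itgb7 on T cells and dendritic cells of epithelia, was at 5.63 and 2.29 CPM after saline and 15.2 and 3.90 CPM after treatment, with groups that overlapped. The 9 T cell markers summed to 60.9 and 23.5 CPM in the saline samples against 123 and 55.9 CPM in the ADC/cmLumiOpto samples. ADC/cmLumiOpto sample 1 was the highest for this sum, for Itgb7 and for Itgae. Both treated samples lay above both saline samples for 3 of the 9 markers (28.1% of all tested genes), and 6 overlapped. Itgb1, the more widely expressed partner of Itga4, was at 1451 and 1763 CPM after saline and 1401 and 1231 CPM after treatment.

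The vascular selectins Sele and Selp, partners of PSGL-1, were measured too, and a difference from Selplg was not tested. Sele, the endothelial selectin that cytokines induce, had 61 and 30 counts in the saline samples against 18 and 15 counts in the ADC/cmLumiOpto samples, which gave a log2 fold change of -1.74 (SE 0.55, quasi-likelihood adjusted p = 0.147). Selp, stored by platelets and endothelium, was at 23.2 and 25.3 CPM after saline and 18.02 and 15.7 CPM after treatment, which gave a log2 fold change of -0.53 (SE 0.21, quasi-likelihood adjusted p = 0.197). For Sele and Selp alike the treated pair lay under the saline pair, whereas for Icam1 and Icam2 it lay above. Per CPM of the 11 endothelial markers, Selp was at 3.34% and 4.86% in the saline samples against 2.46% and 1.39% in the ADC/cmLumiOpto samples. Madcam1, the mucosal ligand of the Itga4 and Itgb7 pair, had 0 counts in the saline samples, which allows up to 3 counts per library, and 1 count in each ADC/cmLumiOpto sample.

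The other genes of the adhesion cascade were read from 6 lists beside the members, and 0 of their genes had an adjusted p under 0.05 in edgeR's quasi-likelihood test. At an unadjusted p under 0.05, 11% of all tested genes were higher and 12.2% lower, against which the counts of each list below are to be read. Of 13 tested selectins and other ligands, 3 were higher and 4 lower at an unadjusted p under 0.05, with a median log2 fold change of 0.089. Those with the smallest p were F11r, a junctional ligand of LFA-1, with a log2 fold change of 0.60, and Glg1, an E-selectin ligand, with one of -0.64. Of 12 tested genes that build the sugars of selectin ligands, 3 were higher and 3 lower, with a median of -0.055. The sialyltransferase gene St3gal6 was at 11.3 and 10.04 CPM after saline and 21.4 and 20.2 CPM after treatment, and the sulfotransferase gene Chst2 was at 67.8 and 71.0 CPM after saline and 40.5 and 37.2 CPM after treatment. Fut7, the fucosyltransferase that leukocytes need to make selectin ligands, had 9 and 2 counts after saline and 9 and 17 after treatment and was not tested. It was picked outside the naming rule.

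Among genes that regulate the switching of integrins, 17 of 19 had a log2 fold change above 0, and among those that signal from bound integrins 11 of 14 did, where the share of all tested genes was 52.0%. The regulators include inhibitors, namely Sharpin at 0.13, Itgb1bp1 at 0.73 and Cytip at 0.62 on the log2 scale, which were picked after their values were seen. Of the 19 regulators, 6 were higher and 1 lower at an unadjusted p under 0.05, with a median log2 fold change of 0.45. Coro1a, an actin regulator of leukocytes, was at 140 and 71.6 CPM after saline and 215 and 369 CPM after treatment, whereas talin, Tln1, which opens integrins from inside and is expressed in most cells, was at 603 and 599 CPM after saline and 323 and 469 CPM after treatment. Of 14 outside-in signaling genes, 5 were higher and 1 lower, with a median of 0.74 whose leave-one-out range was 0.35 to 1.02. Tyrobp, an adaptor of myeloid and natural killer cells, was at 73.1 and 60.6 CPM after saline and 127 and 147 CPM after treatment, which gave a log2 fold change of 1.04 (SE 0.18, quasi-likelihood adjusted p = 0.116). Cbl, a ubiquitin ligase, had a log2 fold change of -0.55. The leukocyte markers were higher in the treated samples along with these lists (7 of 8 at an unadjusted p under 0.05 in edgeR, 0 lower, all without adjustment), and their part in the values was not tested.

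Of 12 transmigration and junction genes, 2 were higher and 2 lower at an unadjusted p under 0.05, with a median log2 fold change of 0.063. Esam, an endothelial junction protein, was at 42.9 and 35.6 CPM after saline and 74.5 and 85.5 CPM after treatment, which gave a log2 fold change of 1.03 (SE 0.18, quasi-likelihood adjusted p = 0.116), and Cttn, an actin-binding protein, had one of -0.54. Pecam1, which guides leukocytes between endothelial cells, was at 143 and 117 CPM after saline and 153 and 220 CPM after treatment. Of the 4 other chains of leukocyte integrins, 3 were tested, with 0 at an unadjusted p under 0.05 in edgeR and a median log2 fold change of 1.22 that was -0.015 without ADC/cmLumiOpto sample 1.

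**Figure D5:**
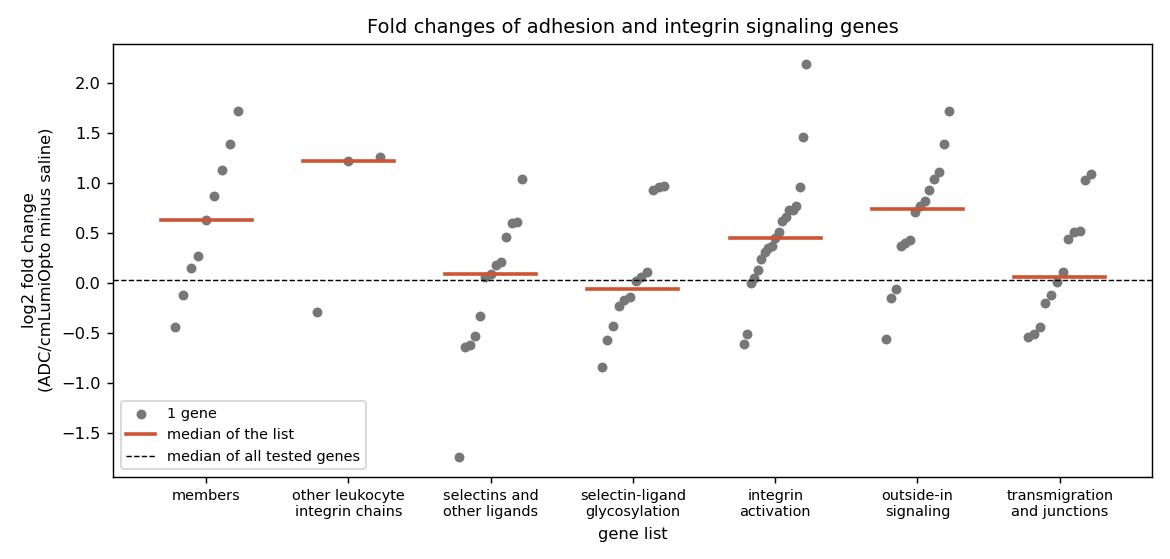
Log2 fold change (ADC/cmLumiOpto minus saline) of each tested gene in the member set and 6 lists, with the list median in red and the median of all tested genes as a dashed line. Medians are 0.63 for the members, 1.22 for the 3 other integrin chains, 0.45 for integrin activation and 0.74 for outside-in signaling, and they lie between -0.055 and 0.089 for selectins and ligands, glycosylation and transmigration.

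The genes with the sample pattern most like 4 of the members were found by the Euclidean distance of centered log2 CPM over the 4 samples, among 11440 other genes with a mean of at least 5 CPM. Many genes lie close in so few samples. For Itgb2 these were Csad, Abtb2 and Ulk3 (distances 0.022 to 0.063), and for Vcam1 they were Rnf2, Adamtsl3 and Cdkal1 (0.022 to 0.039). For Itgb7 they were H2-T23, Clec4n and B4galt4 (0.080 to 0.10). Icam2 had more distant neighbors, Higd1b, Napsa and Nr1h3 (0.11 to 0.19). Higd1b, the nearest, was at 3.75 and 2.09 CPM after saline and 9.01 and 10.2 CPM after treatment. Napsa was at 36.8 and 21.5 CPM after saline and 86.4 and 101 CPM after treatment. Nr1h3 was at 4.94 and 2.22 CPM after saline and 10.9 and 10.9 CPM after treatment.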

How the data were processed

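Lung RNA of 2 saline and 2 ADC/cmLumiOpto samples was analyzed, grouped by the sample titles. The study's methods give 4 samples per group, whereas the deposited counts hold only the 2 per group used here. The file the authors deposited holds unnormalized read counts for each gene. HISAT2 was the aligner, and the counting program is not given in the sources used here. The methods name GRCm38 and the processing notes name mm39. The listed start and end of 0 of the 9 members equal those of GRCm38, so listed positions are given as mm39. Strandedness is not stated, so reads of overlapping antisense genes cannot be told apart.

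The fit used edgeR 4.0.16 under R 4.3.3: filterByExpr (minimum count 10, minimum total 15), TMM, glmQLFit and glmQLFTest with a prior count of 0.125, and Benjamini-Hochberg adjustment over 15320 genes with a threshold of 0.05. The standard error is the log2 fold change divided by the square root of F. FPKM used the listed gene length. The alternatives were DESeq2 1.42.0, the edgeR exact test, library size, upper-quartile scaling, other filters, protein-coding genes, a replicate block, gene length (lowess span 0.3), a prior count of 2 and each sample left out. The procedure was tested on simulated data.

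Members and lists were chosen with earlier results of these data known. The genes named are the members, the other leukocyte integrin chains, Sele, Selp, Madcam1, the gene with the smallest p in each direction of each other list, Ptprc, Pecam1 and the 3 nearest patterns of 4 members, and exceptions are stated. A gene that the rule also names is not reported here. The methods call the samples biological and the labels name no animals, so p-values measure only the spread between these samples, which may be technical. With 2 against 2, an exact permutation test cannot go below a two-sided p of 0.333. The p-values are therefore from models fitted across genes.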

Additional observations from a re-analysis of the deposited data

How the results depend on the processing

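The number of genes at an adjusted p under 0.05 was 0 in edgeR's quasi-likelihood test (3553 at an unadjusted p under 0.05), 1353 in DESeq2, 1170 in the edgeR exact test, 2259 without the filter (25563 genes) and 0 to 206 with a sample left out, the highest without saline sample 1. Members at that threshold numbered 3, 3 and 5 in the same alternatives and 0 to 2 with a sample left out. At an unadjusted p under 0.05, higher genes numbered 2580 without the filter and 805 to 1727 with a sample left out, and lower genes 756 to 1982. Higher members numbered 2 to 5 and lower members 0 to 1 with a sample left out. Vcam1, the 1 lower member, missed p = 0.05 under upper-quartile scaling, the exact test, at least 10 counts in every sample, protein-coding genes only and removal of the length trend, which left 0 lower members each. A left-out group's lone sample was assumed to vary like the other group.

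With a replicate block, 607 genes and 2 members (Icam1 at 0.0433 and Icam2 at 0.0232, edgeR's quasi-likelihood test, adjusted) passed, and 0 members were lower. The deviations of same-numbered samples correlated at 0.099 over genes and no label ties the numbers, so the block was not treated as a pairing.

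The sign turned for Itga4 (0.20 without the length trend, 0.24 without saline sample 1, and -0.39 to 0.24 over left-out samples), Itgam (-0.20 without saline sample 1, -0.72 without ADC/cmLumiOpto sample 2, and up to 0.70) and Itgb2 (-0.072 without ADC/cmLumiOpto sample 2, and up to 0.55). The list median turned for glycosylation (0.031 under upper-quartile scaling, 0.039 without the filter, 0.0032 without ADC/cmLumiOpto sample 1, and down to -0.19), transmigration (-0.020 without the length trend, -0.042 without saline sample 2, and up to 0.19), the other integrin chains (-0.015 without ADC/cmLumiOpto sample 1, and up to 2.06) and selectins and other ligands (-0.018 without ADC/cmLumiOpto sample 2, and up to 0.28). The cause was not tested. Icam1, Icam2, Selplg, Itgal, Itgb7 and Vcam1 kept their sign in all 14 alternatives.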
